A study of Mus musculus with 4 samples.

Results

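The 10 genes described here encode receptors, killing proteins and lineage transcription factors of natural killer (NK) cells and other cytotoxic lymphocytes. They were chosen by name: the receptors Ncr1, Klrb1c, Klrk1 and Klrd1, the granule effectors Gzma, Gzmb, Prf1 and Nkg7, and the T-box factors Eomes and Tbx21. These genes and the wider lists below were chosen with earlier results of these data known. All 10 were present among the 23763 genes of the deposited table, and all 10 had a mean level above the minimum of 1 set for testing, as had 16970 genes in all. The table comes from bulk RNA-seq of whole spleen from C57BL/6J mice, with a treatment labelled baseline in every library. It holds 2 wild-type libraries (WT) and 2 libraries from mice with a knock-in at the Kelch-like 3 locus (KLHL3-KI), KLHL3 being the substrate adaptor of a cullin-RING ubiquitin ligase. The knocked-in allele and the age and sex of the animals are not stated in the labels used here. The labels do not state that the 2 libraries of a group came from separate animals, so the p-values below measure only the spread between these libraries, which may be technical.

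NK cells are innate lymphocytes that kill infected, transformed or stressed cells without prior sensitisation, and the spleen holds a large pool of them in its red pulp. Activating receptors such as NKp46 (Ncr1) and NKG2D (Klrk1) and inhibitory receptors such as CD94/NKG2A (Klrd1 with Klrc1) are weighed against each other at contact with a target cell. When activation prevails, granules holding perforin (Prf1) and granzymes (Gzma, Gzmb) are released toward the target: perforin makes pores through which the granzymes enter. The paired factors EOMES and T-bet (Tbx21) establish and maintain the NK programme. Most of these genes are not exclusive to NK cells. Activated and memory CD8 T cells, NKT cells and type 1 innate lymphoid cells share Klrk1, Klrd1, the granzymes, Prf1, Nkg7, Eomes and Tbx21 to varying degrees, while Ncr1 is the most restricted of them.

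The stretches just upstream of the genes are shown for the 3 members that passed the test and for 3 granule genes that did not, because T-box and RUNX proteins are textbook regulators of cytotoxic genes. Each is the 250 bases before the RefSeq transcription start (build GRCm38.p6), written 5′ to 3′ on the strand of the gene. Capitals mark the T-box letters GTGTGA (reverse TCACAC) and the RUNX letters TGTGGT (reverse ACCACA), searched on both strands. These motifs did not overlap each other in the windows shown.
Ncr1, chr7:4337465-4337714, plus strand: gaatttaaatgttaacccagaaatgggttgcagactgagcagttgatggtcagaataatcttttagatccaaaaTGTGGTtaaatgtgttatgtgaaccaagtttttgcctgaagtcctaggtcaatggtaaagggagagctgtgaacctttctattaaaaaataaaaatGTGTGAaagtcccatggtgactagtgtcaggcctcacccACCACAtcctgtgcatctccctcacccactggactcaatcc
Klrk1, chr6:129623865-129624114, minus strand: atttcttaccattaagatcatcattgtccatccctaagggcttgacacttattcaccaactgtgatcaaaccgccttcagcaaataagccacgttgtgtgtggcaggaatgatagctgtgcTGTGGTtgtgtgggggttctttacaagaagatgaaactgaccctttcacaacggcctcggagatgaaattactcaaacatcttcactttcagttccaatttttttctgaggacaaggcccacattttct
Eomes, chr9:118477939-118478188, plus strand: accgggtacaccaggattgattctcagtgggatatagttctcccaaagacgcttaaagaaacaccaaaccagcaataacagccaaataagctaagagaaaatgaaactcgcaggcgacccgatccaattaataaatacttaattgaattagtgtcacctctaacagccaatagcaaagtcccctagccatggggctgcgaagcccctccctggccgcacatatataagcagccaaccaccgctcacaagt
Nkg7, chr7:43436888-43437137, plus strand: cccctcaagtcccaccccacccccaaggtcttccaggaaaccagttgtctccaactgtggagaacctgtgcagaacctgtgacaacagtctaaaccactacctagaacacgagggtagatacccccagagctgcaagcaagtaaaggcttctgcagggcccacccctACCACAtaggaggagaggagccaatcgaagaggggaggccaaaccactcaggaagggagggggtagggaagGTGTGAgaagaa
Gzma, chr13:113100982-113101231, minus strand: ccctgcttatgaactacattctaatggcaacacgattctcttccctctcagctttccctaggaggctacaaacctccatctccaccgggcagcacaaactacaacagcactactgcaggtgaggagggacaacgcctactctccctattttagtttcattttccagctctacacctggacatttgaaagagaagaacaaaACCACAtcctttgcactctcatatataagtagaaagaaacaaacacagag
Gzmb, chr14:56262335-56262584, minus strand: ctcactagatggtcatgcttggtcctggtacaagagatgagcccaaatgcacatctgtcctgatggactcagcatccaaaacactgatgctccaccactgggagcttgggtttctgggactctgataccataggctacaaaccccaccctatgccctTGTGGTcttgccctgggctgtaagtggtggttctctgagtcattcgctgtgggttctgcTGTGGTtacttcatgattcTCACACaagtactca

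RefSeq windows were matched for 9 of the 10 members; the exception was Klrd1. For Ncr1, which has 2 windows, the first was used. The Ncr1 window held 1 T-box match 80 bases before the start and RUNX matches at 176 and 41 bases. The Gzmb window had a T-box match 15 bases before the start and RUNX matches at 93 and 34 bases. Nkg7 had a T-box match at 12 bases and a RUNX match at 83. Klrk1 and Gzma each had a RUNX match, at 129 and 50 bases, and the Eomes window held neither set of letters. A T-box match was present in 3 of the 9 member windows and in 12.3% of all 32851 windows in the reference table. RUNX letters were present in 7 of the 9 and in 14.0% of all windows, the exceptions being Eomes and Tbx21. ETS letters (GGAAGT, both strands) were found in 3 of the 9 and in 19.7% of all windows, and STAT letters (TTCNNNGAA, which read the same on both strands) in 1 of the 9 and in 7.02%. A match describes the letters only, and genes with matches stood on both sides of the test described below: Ncr1 and Klrk1 passed it with RUNX letters, Nkg7, Gzma and Gzmb did not pass it with RUNX letters, and Eomes passed it with none.

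Levels are given as the deposited normalised read counts, which are read counts divided by 1 scaling factor per library. One read is worth between 0.0974 and 0.112 of these units, and the libraries held 8535483 and 8975415 reads (WT 1 and 2) and 9586677 and 10933023 reads (KLHL3-KI 1 and 2). A log2 fold change is the KLHL3-KI mean minus the WT mean of log2(value + 1), given with its standard error (SE) and a p-value from limma's moderated test adjusted over all genes tested. A gene is said to have risen or fallen where the adjusted p was under 0.05. By that rule 22.8% of the genes tested changed, 15.2% upward and 7.56% downward, with a median log2 fold change of -0.01. Klhl3 itself had levels of 3.02 and 4.67 in WT against 2.53 and 1.36 in KLHL3-KI (log2 fold change -0.72, SE 0.27, limma adjusted p = 0.0895), and this level does not check a knock-in label. As the other cell types of the spleen enter the same RNA, their markers are summarised here. Erythroid, neutrophil and cell-division markers rose without exception (16 of 16, 12 of 12 and 12 of 12 genes), and T-cell and B-cell markers fell (14 of 14 CD8 and pan-T genes, 10 of 12 B-cell genes). The summed level of the B-cell genes nonetheless overlapped between the groups, at 13657 to 15181 in WT and 13238 to 15428 in KLHL3-KI. Without the variance trend, 8 of the 14 CD8 and pan-T genes and 6 of the 12 B-cell genes fell. With 1 library left out, the median log2 fold change of the CD8 and pan-T genes ranged from -0.88 to -0.58 (-0.70 as reported). That of the B-cell genes ranged from -0.89 to -0.53 (-0.71 as reported). The neutrophil count was 8 with a robust variance model.

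Of the 10 members, 3 fell in KLHL3-KI (Eomes, Ncr1 and Klrk1) and 0 rose, against 7.56% and 15.2% of all genes tested. Of their log2 fold changes, 9 of 10 were negative, as were 51.3% of those of all genes, and the median was -0.37 against -0.01. By role, 2 of 4 receptors and 1 of 2 transcription factors fell, with medians of -0.39 and -0.58, and 0 of 4 granule effectors passed, with a median of -0.04. Both KLHL3-KI values lay below both WT values for 5 members (Eomes, Ncr1, Klrk1, Klrb1c and Prf1), a pattern seen in 31.9% of all genes tested. Both lay above for Gzmb, as in 32.8% of all genes, and the values of the other 4 members overlapped. In bulk tissue, fewer cells of a type, less RNA per cell and a larger share of RNA from other cell types cannot be told apart. This holds for every level given here.

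**Figure D1:**
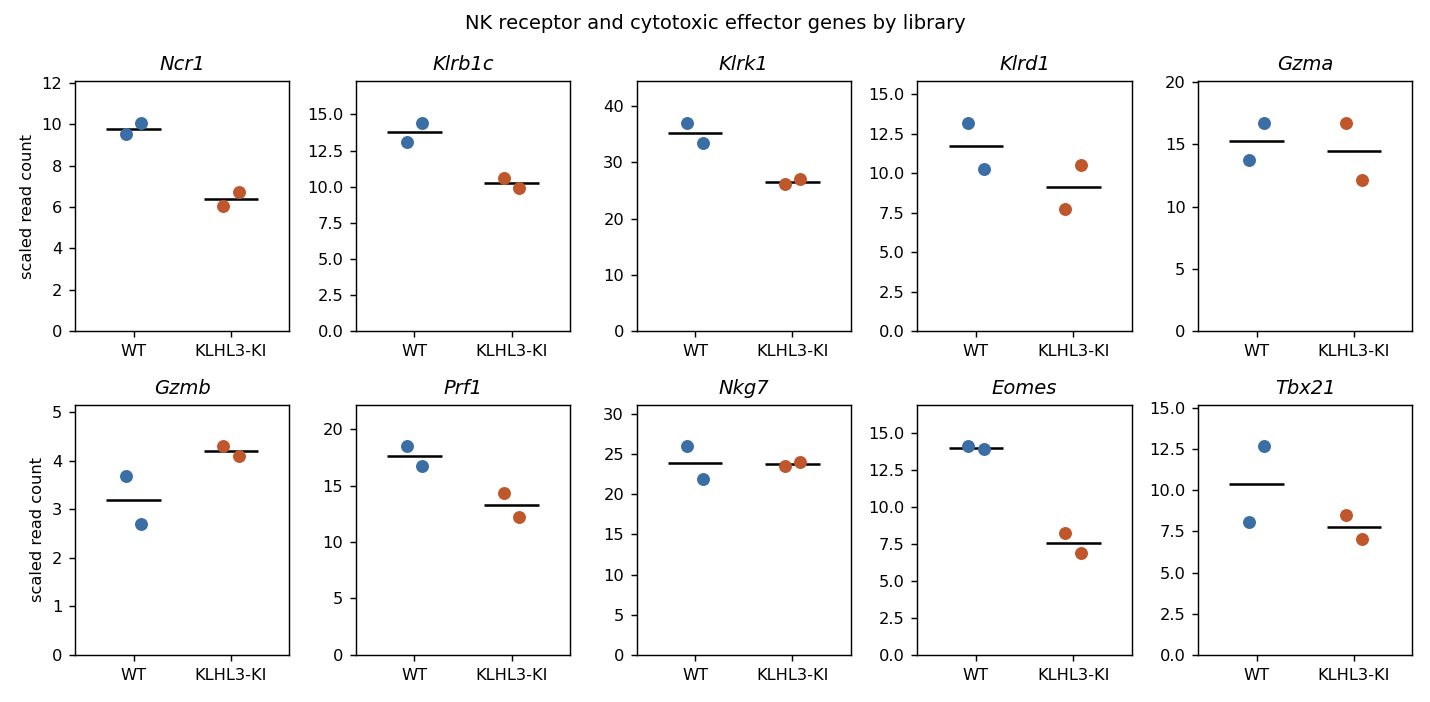
Normalised read count (vertical axes, deposited units) of the 10 genes in each of the 4 libraries, with points for WT and KLHL3-KI libraries and bars at the group means. The KLHL3-KI points of Eomes, Ncr1, Klrk1, Klrb1c and Prf1 lie below both WT points, those of Gzmb lie above, and those of Klrd1, Gzma, Nkg7 and Tbx21 mix with WT.

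Eomes (ENSMUSG00000032446), the T-box factor needed for mature NK cells, stood at 14.1 and 13.9 in the WT libraries and at 8.26 and 6.91 in the KLHL3-KI libraries. The 2 WT values were nearly equal and both KLHL3-KI values were well below them. The mean went from 14.0 ± 0.133 to 7.59 ± 0.951 (SD, n = 2 per group), a log2 fold change of -0.81 (SE 0.16, 95% interval -1.17 to -0.45, limma adjusted p = 0.00592). It was the member with the lowest adjusted p, and the call was lost without WT 1 (limma adjusted p = 0.0558) or without WT 2 (0.0608). An annotated antisense gene, Gm33460, overlaps Eomes and was not analysed here. The libraries were made with a directional kit, but no source used here says whether the counting used strand.

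Tbx21 (ENSMUSG00000001444) encodes T-bet, the partner factor that drives terminal NK maturation and interferon gamma production. It stood at 8.06 and 12.7 in WT and at 8.48 and 7.01 in KLHL3-KI. The WT libraries lay further apart than the group means did, so the groups overlapped. Its log2 fold change was -0.35 (SE 0.22, 95% interval -0.84 to 0.14, limma adjusted p = 0.279), and it was -0.65 without WT 1 and -0.06 without WT 2. Within a library, Eomes was 1.75 and 1.10 times Tbx21 in WT against 0.974 and 0.986 times Tbx21 in KLHL3-KI. That ratio was lower in both KLHL3-KI libraries, with WT 1 well apart from the rest.

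Ncr1 (ENSMUSG00000062524) encodes NKp46, an activating receptor that recognises viral and cellular ligands and is used to define NK cells across mammals. Its level was 9.51 and 10.1 in WT against 6.06 and 6.72 in KLHL3-KI, with a clear gap between the groups. The mean went from 9.79 ± 0.395 to 6.39 ± 0.468 (SD, n = 2 per group). The log2 fold change was -0.55 (SE 0.17, 95% interval -0.92 to -0.17, limma adjusted p = 0.0418). This call lay near the threshold: leaving out any 1 of the 4 libraries gave limma adjusted p-values from 0.0651 to 0.198, testing without the minimum level gave 0.0753, and DESeq2 gave an adjusted p of 0.249.

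Klrk1 (ENSMUSG00000030149) encodes NKG2D, the receptor for stress-induced ligands that signals through DAP10 (Hcst) and DAP12 (Tyrobp). It had the most reads of the 10 genes, from 237 to 331 per library, and stood at 37.0 and 33.4 in WT and at 26.1 and 27.0 in KLHL3-KI. The KLHL3-KI values sat close together and below both WT values. The mean went from 35.2 ± 2.55 to 26.5 ± 0.618 (SD, n = 2 per group), a log2 fold change of -0.39 (SE 0.12, 95% interval -0.66 to -0.13, limma adjusted p = 0.0371). Leaving out any 1 of the 4 libraries ended this call too (limma adjusted p from 0.0702 to 0.202), as did a fit without the variance trend (0.0870) and DESeq2 (adjusted p = 0.141).

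Klrb1c (ENSMUSG00000030325) encodes the NKR-P1C receptor, the antigen by which NK cells are usually stained in the C57BL/6 strain. It stood at 13.1 and 14.4 in WT and at 10.6 and 9.93 in KLHL3-KI, without overlap. The log2 fold change of -0.39 (SE 0.15, 95% interval -0.73 to -0.06) had a limma adjusted p of 0.0917. Klrb1c belongs to a family of similar genes, and an annotated gene on the same strand, Gm44511, overlaps it; that gene had 0 to 2 reads per library. Klrd1 (ENSMUSG00000030165) encodes CD94, the shared chain of the NKG2A and NKG2C receptors. It stood at 13.2 and 10.3 in WT and at 7.71 and 10.5 in KLHL3-KI, so that the second KLHL3-KI library lay inside the WT range. Its log2 fold change was -0.34 (SE 0.19, 95% interval -0.77 to 0.10, limma adjusted p = 0.246).

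Prf1 (ENSMUSG00000037202), the pore-forming protein without which granzymes do not reach the target, was the 1 granule effector whose KLHL3-KI values lay below WT without overlap. It stood at 18.5 and 16.7 in WT and at 14.3 and 12.2 in KLHL3-KI. The log2 fold change was -0.39 (SE 0.15, 95% interval -0.72 to -0.06, limma adjusted p = 0.0907). Prf1 and Klrb1c were the members whose calls turned on the scaling of the libraries. When libraries were scaled to equal total reads, to equal quantiles, or after haemoglobin, immunoglobulin and mitochondrial genes were removed, both also fell, with limma adjusted p-values of 0.0217 to 0.0399 for Prf1 and 0.0258 to 0.0433 for Klrb1c, so that 5 of the 10 members fell, against 18.4%, 14.0% and 17.7% of all genes tested. These scalings moved the median of all genes to -0.16, -0.10 and -0.14.

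For the other 3 effectors the interval of the difference included 0. Nkg7 (ENSMUSG00000004612), a membrane protein of cytotoxic granules required for their exocytosis, stood at 26.0 and 21.9 in WT and at 23.6 and 24.1 in KLHL3-KI. Both KLHL3-KI values lay between the WT values, and the 95% interval of the log2 fold change ran from -0.30 to 0.29 (limma adjusted p = 0.993). Gzma (ENSMUSG00000023132), the tryptase that is the main granzyme of resting mouse NK cells, stood at 13.8 and 16.7 in WT and at 16.7 and 12.2 in KLHL3-KI. Its libraries were fully mixed (log2 fold change -0.08, SE 0.18, 95% interval -0.48 to 0.32, limma adjusted p = 0.780). Gzmb (ENSMUSG00000015437), the granzyme that cleaves caspases and is translated on activation, stood at 3.69 and 2.70 in WT and at 4.30 and 4.09 in KLHL3-KI. It was the 1 member higher in both KLHL3-KI libraries, by 0.32 on the log2 scale (SE 0.21, 95% interval -0.16 to 0.80, limma adjusted p = 0.320). With 26 to 42 reads per library, its counting error alone reached 19.6% of the level.

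**Figure D2:**
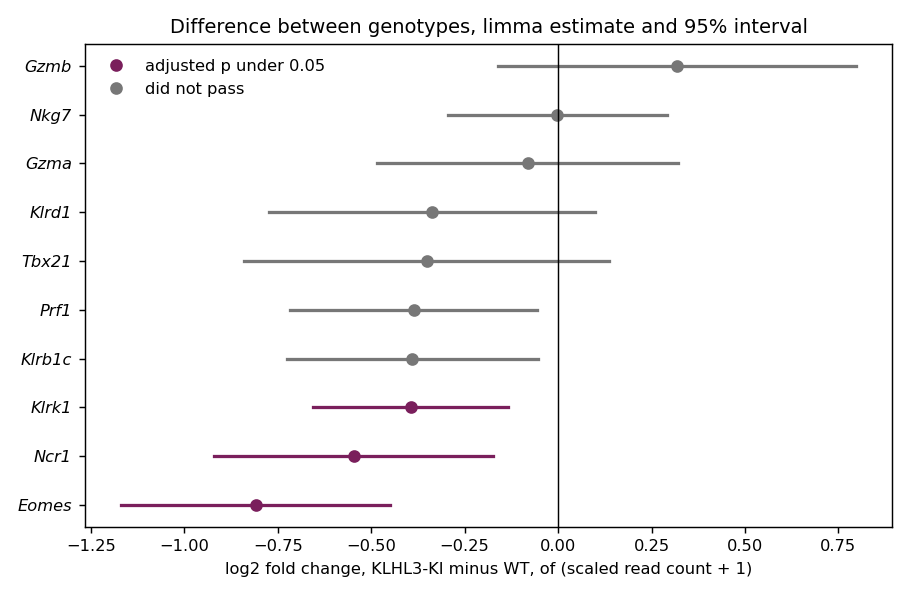
Log2 fold change, KLHL3-KI minus WT, of each of the 10 genes from limma, with 95% intervals (lines) and the genes ordered by the size of the difference. The intervals of Eomes, Ncr1, Klrk1, Klrb1c and Prf1 end below 0 before adjustment, and the first 3 also passed after adjustment over all genes tested.

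Levels can be compared between genes only per length, so each value was divided by the gene's exon length in kilobases (union of exons, GRCm38 annotation). On this per-kilobase scale of level the WT order was Nkg7 (26.2), Gzma (15.1), Klrd1 (9.16), Prf1 (6.81), Ncr1 (6.36), Klrk1 (4.90), Klrb1c (4.65), Tbx21 (4.16), Eomes (3.37) and Gzmb (2.23). Granule genes therefore held both ends of the order. Neighbours whose 2 WT values overlapped were Prf1 with Ncr1, Klrk1 with Klrb1c, Klrb1c with Tbx21, and Tbx21 with Eomes, so those steps did not exceed the spread. In KLHL3-KI the first 8 kept this order, with Nkg7 at 26.1 and Gzma at 14.4, and the last 2 changed places: Gzmb stood at 2.92 and Eomes at 1.83.

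Ratios formed within a library do not depend on its scaling factor. The summed level of the 4 effectors was 0.849 and 0.851 times that of the 4 receptors in WT, and 1.17 and 0.969 times in KLHL3-KI. Both KLHL3-KI ratios were higher, and the WT ratios were almost identical. Eomes was 19.4% and 20.4% of the summed receptors in WT against 16.4% and 12.8% in KLHL3-KI, again without overlap. Gzmb relative to Gzma was 0.268 and 0.161 in WT against 0.257 and 0.336 in KLHL3-KI, with the first KLHL3-KI library inside the WT range. An exact permutation test of 2 against 2 libraries cannot go below p = 0.333, so these ratios are given as values only.

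The 10 genes were also set against the T-cell markers, because CD8 T cells share several of them. The summed level of the 14 CD8 and pan-T markers ranged from 592 to 722 in WT and from 368 to 412 in KLHL3-KI, and the summed level of the 10 members was 157 and 153 in WT against 126 and 121 in KLHL3-KI. The members' sum, none of whose genes is among those markers, therefore equalled 30.6% and 32.8% of the T-cell sum in KLHL3-KI against 21.7% and 25.8% in WT. The effectors alone went from 8.57% and 9.79% of the T-cell sum to 14.3% in both KLHL3-KI libraries, and the receptors from 10.1% and 11.5% to 12.2% and 14.7%. Singly, 7 of the 10 members gave ratios to the T-cell sum that were higher in both KLHL3-KI libraries than in both WT libraries. Any gene that fell less than that sum gives a higher ratio, and the share of all genes doing so was not computed. Eomes, Ncr1 and Tbx21 gave ratios to the T-cell sum that mixed between the groups. Eomes equalled 1.95% and 2.35% of it in WT and 2.00% and 1.88% in KLHL3-KI. Ncr1 equalled 1.32% and 1.70%, then 1.47% and 1.83%, and Tbx21 equalled 1.12% and 2.14%, then 2.06% and 1.91%. The genes of the T-cell list at the highest level, Cd2 and Trbc2, fell by 0.71 and 0.80 on the log2 scale, beside -0.81 for Eomes and -0.55 for Ncr1. Cd2 is also carried by mouse B and NK cells, so the T-cell sum is not from T cells alone. Genes listed for gamma-delta T and NKT cells summed to 62.6 to 63.1 in WT and 51.0 to 58.3 in KLHL3-KI. Of the 7 tested, 0 passed, with a median of -0.21. The list includes Cd1d1, which presents antigen to NKT cells and does not mark them, so the sum is not a level of those cells. None of the 14 pan-T markers was at 0 in any library, and the part of T cells in the members' levels was not tested.

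**Figure D3:**
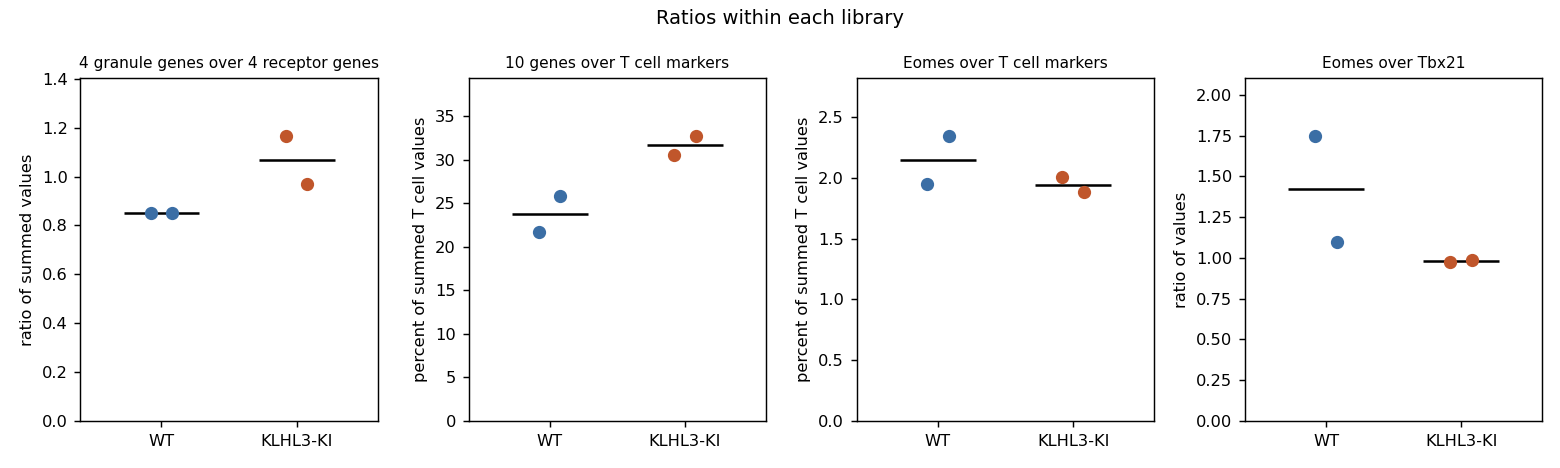
Within-library ratios for the 4 libraries, with 1 panel per ratio and 1 point per library. The effectors-to-receptors ratio and the ratio of the members' sum to the T-cell marker sum are higher in both KLHL3-KI libraries, Eomes relative to the T-cell sum mixes between groups, and Eomes relative to Tbx21 is lower in both; bars mark group means.

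Beyond the 10 members, 8 wider lists cover the rest of the NK pathway: 157 genes in the table, of which 139 were tested. Across them 41 fell and 7 rose, against 7.56% and 15.2% of all genes tested, with a median log2 fold change of -0.22. The reported counts of each list below stand beside these same shares. Many of these genes also serve T or B cells, whose markers fell, and this was not tested as a source of the counts. Leaving out WT 1, WT 2 or the variance trend lowered the number that fell both here and over all genes tested. The smaller counts given below for these fits therefore stand beside fewer calls over all genes. Of the genes given with their statistics below, Il2rb, Cd247, Txk, Ctsw and Nfil3 did not pass without WT 1 (limma adjusted p = 0.156, 0.0844, 0.121, 0.0723 and 0.194). Fcgr3, Stx11, Txk, Ctsw and Nfil3 did not pass without WT 2 (limma adjusted p = 0.0677, 0.0854, 0.0954, 0.0944 and 0.133). Txk and Ctsw also did not pass in DESeq2 (adjusted p = 0.0914 and 0.0696), nor Il2rb, Txk and Nfil3 in limma without the variance trend (adjusted p = 0.0938, 0.0511 and 0.0896).

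Among 27 further receptors tested, 4 fell and 2 rose, with a median of -0.05. The number that fell was 1 without WT 1 or without the variance trend, 2 without WT 2, and 7 with equal total reads or with haemoglobin, immunoglobulin and mitochondrial genes left out; 1 rose without WT 2. Those that fell were Il2rb, the shared receptor chain for interleukin signals that sustain NK cells (means 103 and 75.9, log2 fold change -0.43, SE 0.11, limma adjusted p = 0.0195), Cd96, Slamf7 and Slamf6 (-0.63, -0.49 and -0.75). Fcgr3, the low-affinity IgG receptor used for antibody-dependent killing, rose from 48.6 and 60.3 to 81.1 and 94.3 (0.68, SE 0.13, limma adjusted p = 0.00459), and the inhibitory receptor Lilrb4a rose by 0.89. Fcgr3 and Lilrb4a are carried by myeloid cells as well, and the summed neutrophil markers ranged from 75.9 to 162 in WT and from 1491 to 2046 in KLHL3-KI; the part of myeloid cells in these rises was not tested. Receptors typical of resting NK cells gave log2 fold changes on both sides of 0: Itga2 at 0.22, Klrc1 at 0.19, Klrc2 at -0.30 and Klri2 at -0.36, none past the test. The Klra (Ly49), Klrc and Klrb1 families hold near-identical copies, so that reads may be split between them and their single values are uncertain.

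Of 20 adaptors and proximal kinases tested, 11 fell and 0 rose, with a median of -0.39. The number that fell was 4 without WT 1, 6 without WT 2 and 5 without the variance trend. They included the T- and NK-cell signalling chain and kinases Cd247, Zap70, Lck, Fyn and Txk (from -0.34 to -0.76), the adaptor Skap1 (-0.85), and Vav1, Syk, Plcg2 and Ptpn6 (-0.38, -0.39, -0.61 and -0.43), which B cells use too. Txk, a Tec-family kinase of T and NK cells, went from 29.1 and 27.7 to 20.2 and 20.3 (log2 fold change -0.47, SE 0.12, limma adjusted p = 0.0193). Cd247, the CD3-zeta chain through which NKp46 signals, went from 37.8 and 28.1 to 20.0 and 18.7 (-0.72, SE 0.15, limma adjusted p = 0.00822). Fcer1g, the other chain used by NKp46, and the NKG2D adaptors Tyrobp and Hcst did not pass (0.34, 0.36 and -0.23). Both KLHL3-KI values of Fcer1g and of Tyrobp lay above both WT values, as in 32.8% of all genes tested. Of the 20 genes, 2 rose with a robust variance model and 1 with a replicate block. The part of other cell types in these values was not tested.

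Of 11 further granule genes tested, 1 fell and 0 rose, with a median of 0.11 that turned to -0.06, -0.05 and -0.03 under equal total reads, quantile normalization and the removal of haemoglobin, immunoglobulin and mitochondrial genes. Ctsw, a cathepsin of NK and CD8 T cells, fell from 16.7 and 17.0 to 10.4 and 10.9 (log2 fold change -0.62, SE 0.14, limma adjusted p = 0.0118). Ctsc, which activates granzymes by trimming them, was at 298 and 304 in the group means, and Cst7, its inhibitor, at 8.06 and 7.94. Of 12 genes of the release machinery, Stx11, a SNARE protein of granule fusion, rose from 28.4 and 26.7 to 38.5 and 44.8 (0.58, SE 0.12, limma adjusted p = 0.00780). The part of other cell types, myeloid cells among them, in the rise of Stx11 was not tested. The actin regulators Coro1a, Dock8 and Wipf1 fell (-0.60, -0.46 and -0.41), and Unc13d, which primes granules, did not pass (-0.03). The median of this list was -0.10. The number that fell was 1 without WT 2 or without the variance trend, and 5 or 6 under the 3 scalings just named.

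Of 23 further transcription factors tested, 9 fell and 1 rose, with a median of -0.34. Tox, which NK development requires, went from 16.4 and 15.8 to 8.04 and 7.99 (log2 fold change -0.92, SE 0.15, limma adjusted p = 0.00181). The KLHL3-KI values of Tox were almost equal and far below WT. Ets1, Ikzf2, Ikzf3, Irf8, Foxo1, Klf2, Bach2 and Tcf7 also fell, by 0.45 to 0.97. Most of these are known for their roles in T or B cells as well. Nfil3, required early in NK commitment, rose from 3.02 and 3.74 to 5.29 and 10.7 (0.98, SE 0.28, limma adjusted p = 0.0344). The part of other cell types, myeloid cells among them, in the rise of Nfil3 was not tested. The 2 KLHL3-KI values of Nfil3 differed by more than the WT pair did, and without KLHL3-KI 2 the limma adjusted p was 0.213. Nfil3 also failed the test with equal total reads (limma adjusted p = 0.0539) and with no minimum level (0.0588). Id2, Zeb2 and Runx3, which maintain mature NK cells, gave -0.03, -0.10 and -0.32 and did not pass.

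In the cytokine axis 4 of 19 tested fell (Il2rg, Il21r, Tgfbr2 and Tnf, at -0.36, -0.66, -0.53 and -0.79) and 0 rose, with a median of -0.16. Leaving out WT 1, WT 2 or KLHL3-KI 2 left 2 that fell, and quantile normalization gave 7. Il15, the cytokine on which NK cells depend, stood at 6.71 and 6.02 in WT and at 4.96 and 7.01 in KLHL3-KI, with the groups mixed. Ifng, the main NK cytokine, was under the minimum level for testing, at 0.671 and 0.830 in WT against 0.110 and 0.487 in KLHL3-KI. Among 14 maturation and trafficking genes 6 fell and 3 rose, with a median of -0.19. Without WT 1 the number that fell was 1, without WT 2 it was 3 with 1 that rose, without the variance trend 1 fell and 1 rose, and with equal total reads 1 rose. Cd27, carried by less mature NK cells and by T cells, went from 25.1 and 23.8 to 14.4 and 12.8 (log2 fold change -0.80, SE 0.13, limma adjusted p = 0.00245), while Itgam, carried by mature NK cells and by myeloid cells, rose by 1.16. Cx3cr1, Cxcr3, S1pr1 and Itgal also fell (-0.68, -0.49, -0.55 and -0.39), Ly6c2 and Itgb1 rose (0.50 and 0.41), and S1pr5, the NK egress receptor, gave -0.26 without passing. On the side of the ligands, 3 of 13 fell, with a median of -0.29. That number was 1 without WT 1, WT 2 or KLHL3-KI 2, with median-ratio rescaling, with no minimum level or without the variance trend, 2 with DESeq2, and 6 or 7 under the 3 scalings named above. These were Clec2i (-0.83), a ligand of an NKR-P1 receptor, H2-K1 (-0.34) and H2-T23 (-0.29), the latter encoding Qa-1, which presents peptides to CD94/NKG2 receptors.

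**Figure D4:**
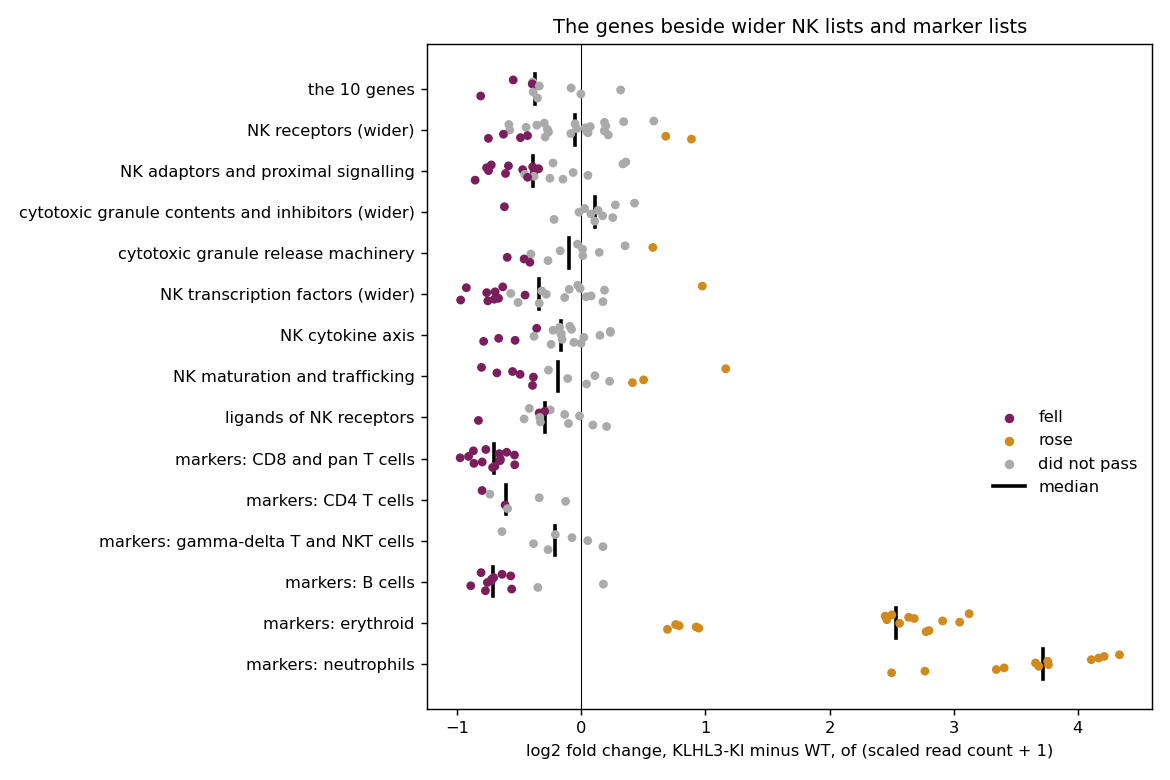
Log2 fold change, KLHL3-KI minus WT, of each tested gene (1 point per gene, coloured by whether it rose, fell or did not pass in limma) for the 10 members, the wider NK lists and 6 of the marker lists, with a bar at each median. The members' median of -0.37 lies between the adaptors (-0.39) and the NK transcription factors (-0.34) on one side of 0, with granule contents at 0.11 in the reported scaling and below 0 in the 3 others named.

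The remaining marker lists give the setting, and their counts stand beside 7.56% of all genes tested that fell and 15.2% that rose. CD4 T-cell markers fell for 2 of 6 (Cd4 and Icos, -0.80 and -0.61, list median -0.60), and B-cell markers had a median of -0.71. Innate lymphoid cell markers changed for 1 of 8 (Il1rl1, which rose), with a median of -0.12, and dendritic-cell markers for 1 of 8 (Flt3, which fell), with a median of -0.18. The innate lymphoid genes, Il1rl1, Itga1 and Il7r among them, are not exclusive to those cells. The part of other cell types in their levels was not tested. Monocyte and macrophage markers rose for 3 of 11 (median 0.22), basophil and mast-cell markers for 3 of 5 (1.48), and erythroid markers, with a median of 2.53, had sums of 26890 to 30757 in WT and 55307 to 55989 in KLHL3-KI. With 1 library left out, CD4 markers that fell numbered 1 to 3 (1 without WT 1, WT 2 or KLHL3-KI 2), dendritic-cell markers 0 to 1 (0 without WT 1 or KLHL3-KI 2), and monocyte and macrophage markers that rose 1 to 4 (1 without WT 2). The 2 genes at the highest level in each of these lists gave log2 fold changes of 0.18 for Ighm and -0.35 for Cr2 (B cells), -0.13 for Itga1 and -0.49 for Il7r (innate lymphoid cells), and 0.14 for Zbtb46 and -0.46 for Flt3 (dendritic cells). They were 0.53 for Vcam1 and 0.12 for Csf1r (macrophages), 2.32 for Hdc and 0.30 for Gata2 (basophils and mast cells), and 0.79 for Hbb-bs and 0.95 for Hba-a1 (erythroid). In the neutrophil list (median 3.72) S100a9 and S100a8 rose by 3.68 and 3.76, in the cell-division list (2.14) Mki67 and Top2a rose by 2.51 and 2.02, and in the gamma-delta T and NKT list Cd1d1 and Zbtb16 gave -0.27 and 0.18. Of these, Flt3, Vcam1, Hdc, the globins, the S100 genes and the cell-division genes passed the test. In whole reads, the 10 members together had 1402 and 1472 in WT against 1145 and 1238 in KLHL3-KI.

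**Figure D5:**
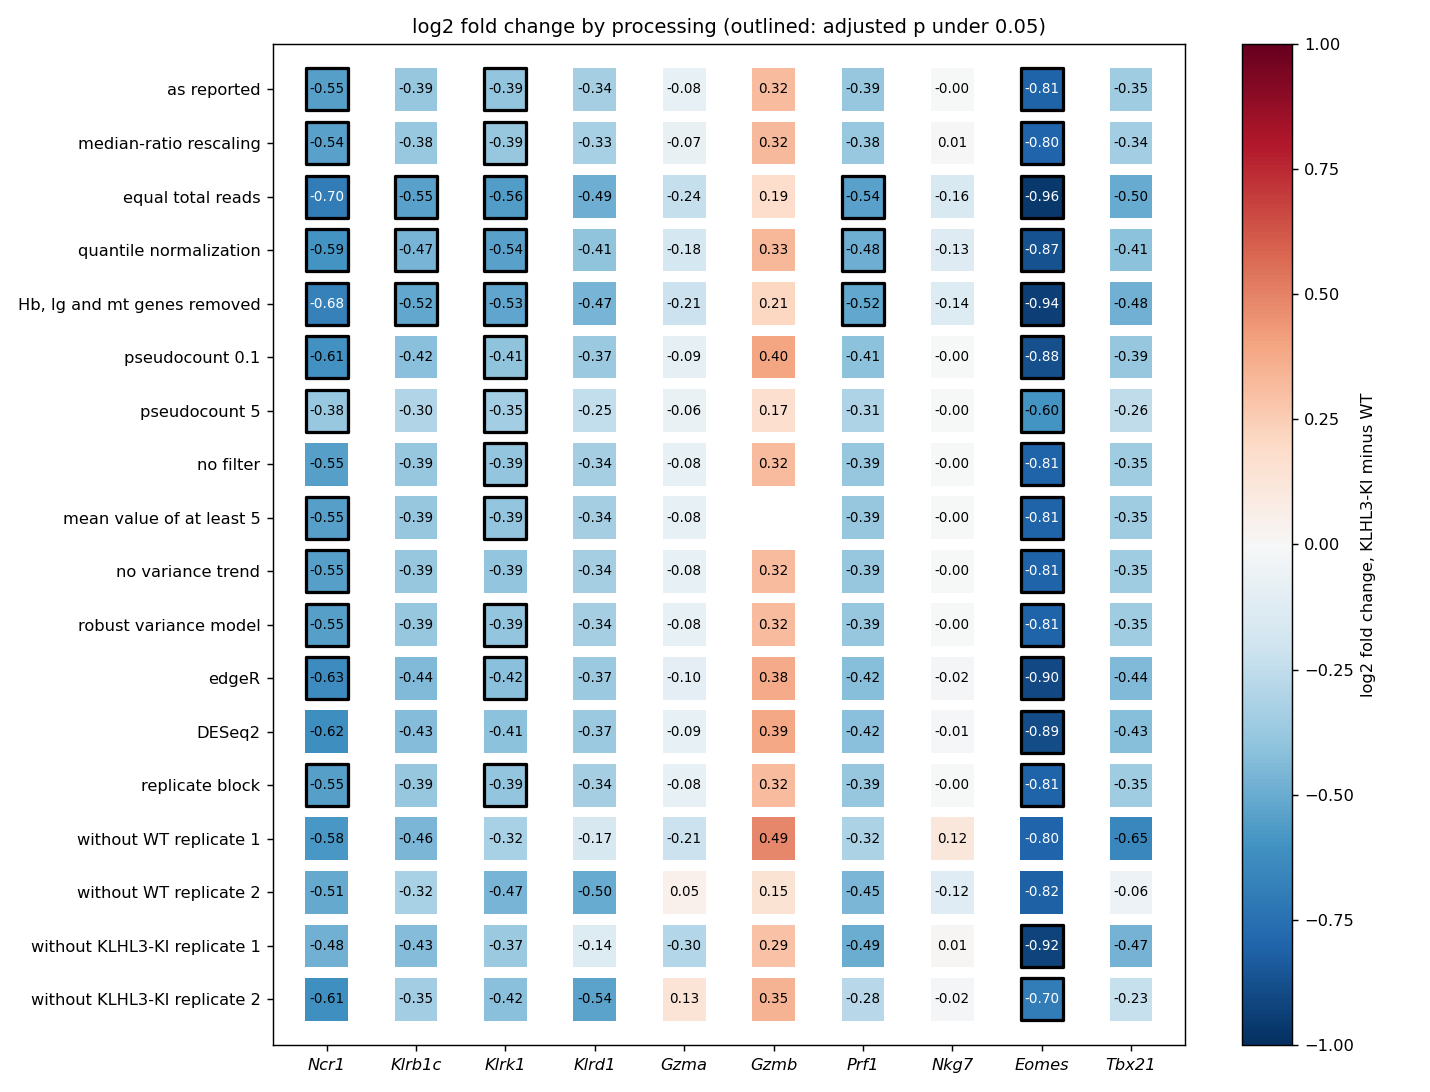
Log2 fold change of each of the 10 genes (columns) under the reported processing and each alternative (rows), with colour and number giving the value and an outline marking an adjusted p under 0.05. Eomes is outlined in every row but the 2 that leave out a WT library, and Ncr1 and Klrk1 lose their outline in each row that leaves out a library.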

How the data were processed

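Total RNA from whole spleen was rRNA-depleted and made into directional libraries, per the labels' protocols. Trimmomatic 0.38, Bowtie2, RSEM 1.3.0, edgeR and build GRCm39 are named in the submitters' processing notes; the role of each and the annotation were not stated. The deposited signal per gene is a normalised count, which the authors made by dividing read counts by 1 factor per library: 100% of values became whole reads within 0.001. Gene IDs were named from the GRCm38 annotation (23605 of 23763). Columns were mapped to samples by name.

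Genes with a mean of at least 1 (16970; 6793 were under it) were tested with limma 3.58.1 (R 4.3.3) on log2(value + 1) with a variance trend and Benjamini-Hochberg adjustment. On recovered reads, edgeR 4.0.16 called 3888 genes and limma 3866; DESeq2 1.42.0 was also run. Within-group pairs of libraries differed beyond sampling noise (chi-square per degree of freedom 3.76 and 6.44), so each counted as 1 replicate. Fits were also run on simulated data with few changed genes, in equal numbers up and down. These data differ from that, so the simulation does not check the calls given here. The members and lists were chosen with earlier results of these data known. Named genes were the 10 members, the genes of the wider lists that passed limma (some are not reported here), and the 2 genes of highest mean level in each marker list; others named as examples were chosen after their values were seen.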

Additional observations from a re-analysis of the deposited data

How the results depend on the processing

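With 2 libraries per group, the number of calls depended on the fit. With 1 library left out, the median log2 fold change of the members ranged from -0.40 to -0.31, against -0.37 as reported. Members that fell numbered 3 as reported, 5 with equal total reads, with quantile normalization and after removal of haemoglobin, immunoglobulin and mitochondrial genes, 1 with DESeq2, and 0 to 1 when 1 library was left out (0 without WT 1 or WT 2); 0 rose in any fit. Over all genes, 1283 fell and 2583 rose as reported. The counts that fell were 3130 with equal total reads (1916 rose), 2369 with quantile normalization (2041 rose), 2968 with those genes removed (2090 rose), 659 without a variance trend and 793 with DESeq2; leaving out 1 library gave 267 to 1627 that fell, lowest without WT 2, and 1386 to 2903 that rose. In the wider lists, 41 fell and 7 rose as reported, 20 fell and 4 rose without a variance trend, and 61 fell and 4 rose with equal total reads, 54 fell with quantile normalization and 60 with those genes removed; leaving out 1 library gave 19 to 44 that fell, lowest without WT 1, and 2 to 9 that rose, lowest without WT 2. The cause of these shifts was not tested, except that leaving out a library leaves 1 sample in its group, assumed to vary like the other. With 1 library left out, Gzma (-0.08 as reported) ranged from -0.30 to 0.13, above 0 without WT 2 or KLHL3-KI 2. Nkg7 (-0.00) ranged from -0.12 to 0.12, above 0 without WT 1 or KLHL3-KI 1, and was 0.0060 with median-ratio rescaling. Neither passed in any of these. Requiring a mean of at least 5 gave no value for Gzmb.

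Titles give both groups replicate numbers 1 and 2, while the library names carry a different numbering. Deviations of same-numbered libraries correlated at -0.0325. With 2 libraries per group the deviations within a group mirror each other, so this value cannot exclude a pairing. With a replicate block 3 members fell and 0 rose, 44 and 8 in the wider lists, and 1415 and 2715 over all genes. Depth limited Gzmb most.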
